A study of Mus musculus with 3 samples.

Results

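The 10 genes described here encode inhibitory and anergy-associated proteins of the T cell surface, together with a pair of Tox factors that act in the nucleus. They are Pdcd1 (PD-1), Lag3, Ctla4, Tigit, Havcr2 (TIM-3), Btla, Cd200, Izumo1r (folate receptor 4), Tox and Tox2. They were matched by symbol, and all 10 were found among the 30406 genes that the tables of the 3 libraries share. On the GRCm38 genome Pdcd1 lies at chr1:94038305-94052553 on the reverse strand and Ctla4 at chr1:60887000-60915832 on the forward strand. Tigit (chr16:43648867-43664146), Btla (chr16:45224315-45257670) and Cd200 (chr16:45382135-45409053) lie on one chromosome, and Lag3 (chr6:124904361-124911705), Havcr2 (chr11:46454935-46481255), Tox (chr4:6686353-6991557), Tox2 (chr2:163203125-163324170) and Izumo1r (chr9:14885814-14903949) on chromosomes of their own. In cells passing the filters they had 36767 UMIs (unique molecular identifiers, each standing for 1 captured transcript) in C57BL/6 mice without BMT, 25076 in mice with BM only and 49245 in mice with BM + Spl.

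Inhibitory receptors are induced when a T cell is stimulated through its antigen receptor, and they limit the signal that follows. PD-1 and BTLA recruit phosphatases, CTLA-4 takes the ligands CD80 and CD86 away from CD28, and TIGIT competes with CD226 for nectin family ligands. TOX is a DNA-binding factor that the thymus needs to make CD4+ T cells and iNKT cells, and it also maintains T cells under long stimulation, where it goes with PD-1. Invariant NKT (iNKT) cells are T cells that recognise lipids on CD1d with a fixed alpha chain and a small set of V beta segments, and in the thymus they mature into NKT1, NKT2 and NKT17 cells.

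The study compared thymic iNKT cells of mice with and without graft-versus-host disease (GvHD) after haploidentical bone marrow transplantation (BMT). The BM only group (labelled Non-GVHD) and the BM + Spl group (labelled GVHD) were F1 (C57BL/6 x BALB/c) mice that had been lethally irradiated and had received C57BL/6 bone marrow depleted of T cells, and the BM + Spl mice also received C57BL/6 splenic cells, which carry mature T cells. The labels give these mice as 16w and 9w after BMT and the untreated C57BL/6 mice (labelled WT) as 7w, read here as weeks of age, and the study's text gives somewhat older mice. Thymocytes of several mice per group were pooled, CD8+ cells were removed, and cells staining for TCRβ and the CD1d tetramer but for neither CD24 nor NK1.1 were sorted, so that mature NK1.1+ NKT1 cells are largely outside the gate. As each condition was sequenced as 1 library, differences between conditions could not be checked against replicates and were not tested. Values in parentheses are 95% intervals, which cover counting error only.

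After filtering, 4434 cells were left in C57BL/6, 5970 in BM only and 5557 in BM + Spl, with a median of 12086.5, 4740 and 6495 UMIs per cell. The tables' headers name different Cell Ranger versions for the C57BL/6 library and the 2 BMT libraries, and V beta UMIs were found in 19.8% of C57BL/6 cells against 89.5% and 89.2% after BMT. Transplantation, age, host and library chemistry therefore cannot be told apart, and C57BL/6 values are given beside the BMT values without a comparison. No cell barcode was shared between C57BL/6 and a BMT library, and 43 were shared between the BMT libraries. Levels (CPM) are the UMIs of a gene per 1000000 UMIs of all genes in the cells of a class. In such sums, fewer cells with a transcript and fewer transcripts per cell cannot be told apart.

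Cells were divided by marker UMIs, none of which belong to the 10 genes. Cells with at least 3 UMIs of the NKT1 list (such as Tbx21, Cxcr3 and Nkg7) and the NKT2 list (such as Zbtb16, Il17rb and Il4) together were called NKT1-gated when at least 0.75 of these UMIs came from the NKT1 list, NKT2-gated when at most 0.25 did, and mixed in between. This gave 1328, 2915 and 913 NKT1-gated cells and 1828, 789 and 1342 NKT2-gated cells in C57BL/6, BM only and BM + Spl. These classes are ranges of a score, and 62 to 248 cells per library lay within 0.05 of a cut. The BMT libraries, each with more cells after the filter than the study states for any sample, also held cells that a CD1d-tetramer sort should not hold. The Treg gate (Foxp3 with at least 3 UMIs of Foxp3, Ikzf2, Ikzf4 and Il2ra) took 2, 584 and 655 cells. A gate on Sostdc1, Nrn1 and Penk took 5, 126 and 582 cells, the CD8 gate 5, 145 and 261, the plasmacytoid dendritic cell (pDC) gate 4, 140 and 381, and the B cell gate 1, 82 and 60. Where a V beta segment could be called, 88.7%, 94.8% and 94.7% of NKT2-gated cells carried one of those typical of iNKT cells (Trbv1, Trbv13-1, Trbv13-2, Trbv13-3 or Trbv29). In NKT1-gated cells the share was 92.3%, 91.2% and 47.4%. In Treg-gated cells it was 29.5% in BM only and 28.0% in BM + Spl, and in Sostdc1/Nrn1/Penk-gated cells 33.7% and 35.6%. By this measure about as many NKT1-gated cells of the BM + Spl library carried other segments as iNKT segments.

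**Figure D1:**
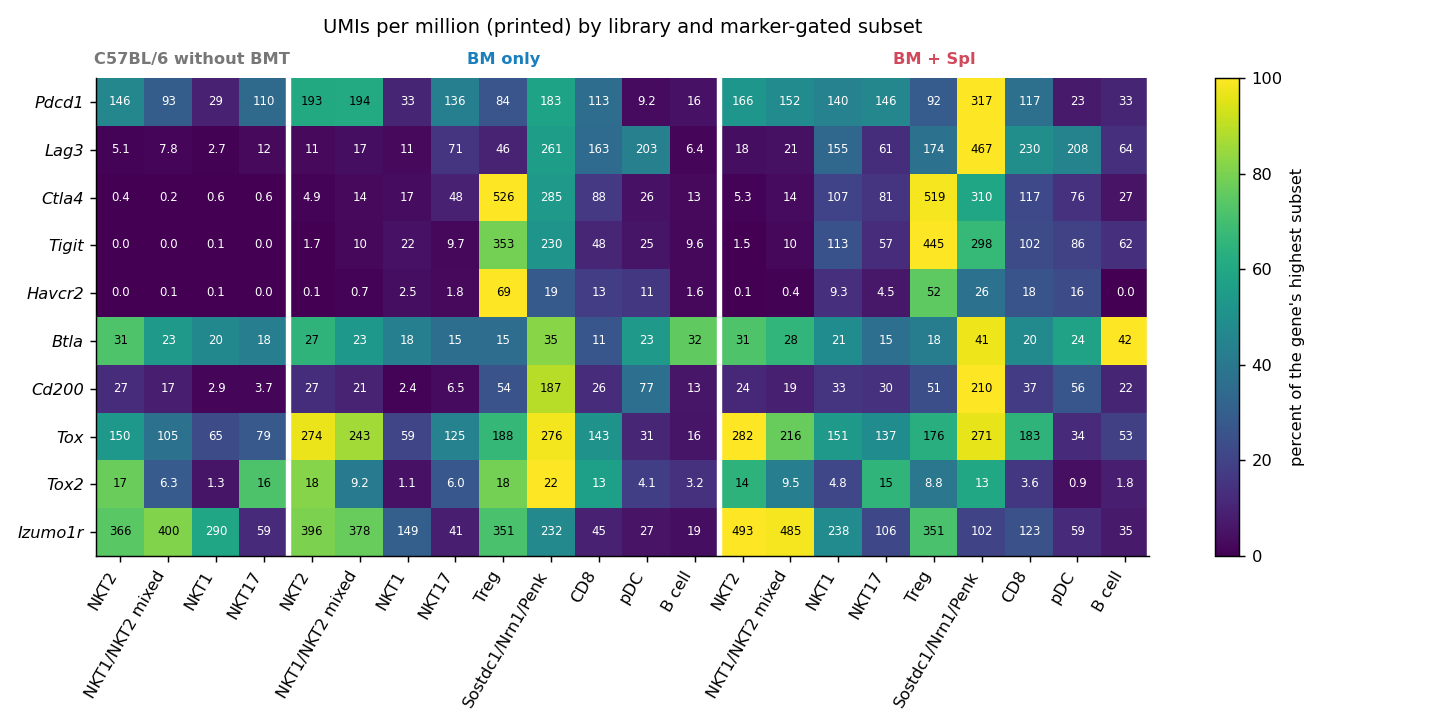
Level of each of the 10 genes (rows, in CPM, printed in each field) in the marker-gated classes of each library (columns). The colour gives each field as a percentage of that gene's highest class, with Ctla4, Tigit and Havcr2 highest in Treg-gated cells, Lag3 and Pdcd1 in Sostdc1/Nrn1/Penk-gated cells of BM + Spl, and Tox and Izumo1r in NKT2-gated cells of BM + Spl.

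In C57BL/6 mice without BMT, PD-1, TOX and their partners were already transcribed in iNKT cells, whereas Ctla4, Tigit and Havcr2 were close to the detection limit. Pdcd1 stood at 146 (142 to 151) CPM in NKT2-gated, 110.0 (101 to 119) in NKT17-gated and 28.7 (25.5 to 32.2) in NKT1-gated cells. Tox stood at 150.0 (146 to 154), 78.9 (71.4 to 86.9) and 64.6 (59.8 to 69.8) CPM in the same order. For both genes NKT2-gated cells were highest and NKT1-gated cells lowest, with intervals that did not overlap. Izumo1r, which marks regulatory and anergic CD4+ T cells, was at 366 (359 to 373) CPM in NKT2-gated and 290.4 (280.0 to 301) in NKT1-gated cells but at only 59.2 (52.7 to 66.2) in NKT17-gated cells. In contrast, all 4434 cells together held 24 UMIs of Ctla4, 3 of Havcr2 and 2 of Tigit. Lag3 was low, at 5.87 (5.26 to 6.52) CPM over all cells. Pooled over the whole library, Ctla4, Tigit and Havcr2 were thus at 0.408, 0.0340 and 0.0510 CPM.

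Between the NKT2-gated and NKT1-gated cells of C57BL/6, 7 of the 10 genes had at least 20 UMIs over both groups, and 6 of these were more than 1.5-fold higher in NKT2-gated cells and 0 were lower. Of all genes with as many UMIs, 18.2% were higher and 15.5% lower past the same fold. Tox2, the close relative of TOX, was 13.4-fold (7.78 to 25.4) higher, Cd200 9.11-fold (6.33 to 13.6) and Pdcd1 5.10-fold (4.53 to 5.75). Tox was 2.32-fold (2.14 to 2.52) higher, Lag3 1.85-fold (1.23 to 2.88) and Btla, the receptor for HVEM, 1.55-fold (1.33 to 1.82). Izumo1r differed by 1.26-fold (1.21 to 1.31) and stayed within the fold. A list of other inhibitory receptors and signal terminators, counted further on, went mostly the other way. Of its 18 genes with at least 20 UMIs, 2 were higher in NKT2-gated cells, Cd72 and Cd5, and 11 were lower, led by Cd244a and Rnf128. NKT17-gated cells differed from NKT1-gated cells in a narrower set, with 3 genes higher and 1 lower, against 18.2% and 14.4% of all genes. Tox2 was 12.5-fold, Lag3 4.4-fold and Pdcd1 3.83-fold higher in NKT17-gated cells, and Izumo1r stood at 0.204 times its NKT1-gated level. Cd200, at 3.70 CPM, was as low in NKT17-gated as in NKT1-gated cells.

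The marker share that sets the NKT1 and NKT2 gates was also split into 10 bins. These bins hold the same cells as the gates, so that they give a finer view and no separate support. In C57BL/6, Pdcd1 went from 153 CPM in the 1048 cells at the NKT2 end to 17.6 in the 967 cells at the NKT1 end, and Tox from 162 to 52.4. Izumo1r did not follow this slope. It was 389 CPM at the NKT2 end, 477 in the third bin from the NKT1 end and 207 at the NKT1 end. After BMT, among cells with an iNKT V beta segment, the NKT1 end is where the libraries parted. There Pdcd1 stood at 30.2 CPM in BM only (2027 cells) and 188 in BM + Spl (226 cells), Tox at 44.8 and 163, and Lag3 at 4.66 and 177. In the other 9 bins Lag3 stayed between 15.5 and 33.1 CPM in BM + Spl.

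**Figure D2:**
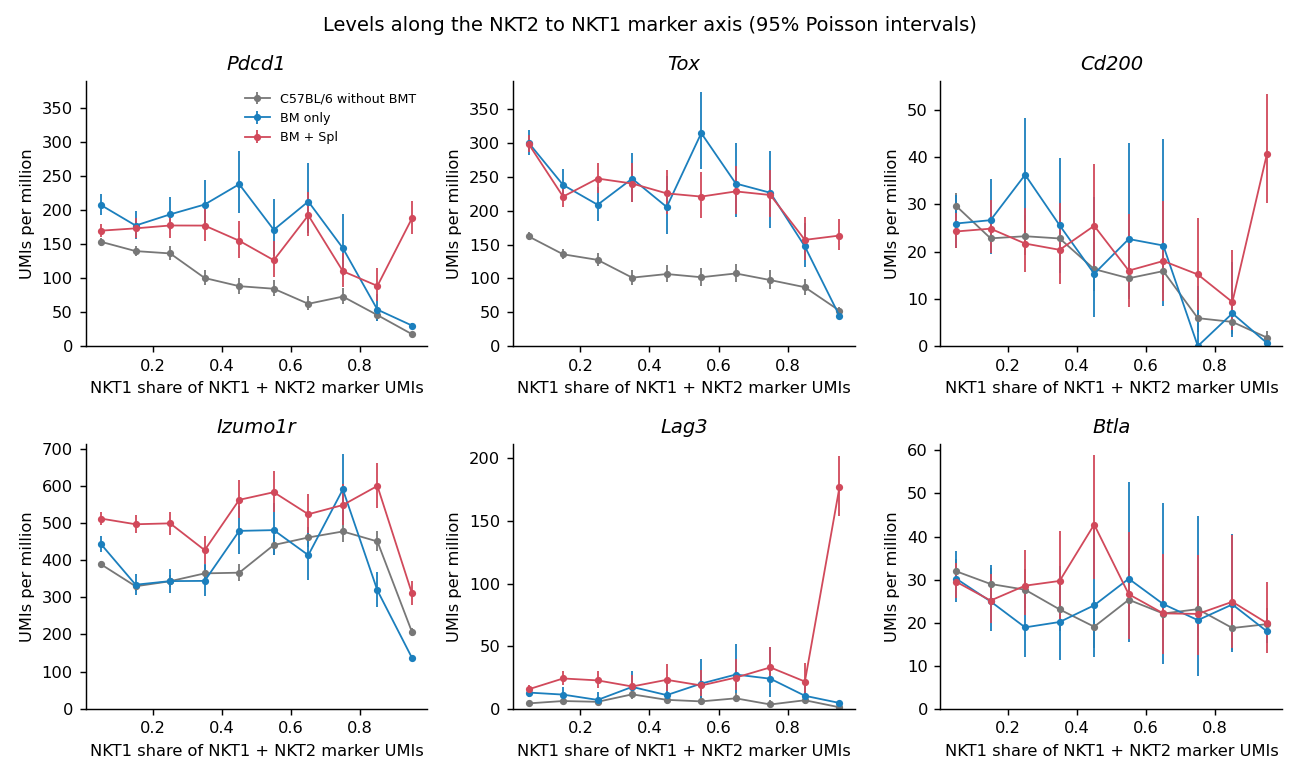
Levels of 6 of the genes (y axis, CPM, bars show 95% Poisson intervals) in 10 bins of the NKT1 share of NKT1 and NKT2 marker UMIs (x axis, NKT2 end at the left), for all C57BL/6 cells and for BMT cells with an iNKT V beta segment. Pdcd1, Tox and Cd200 are lowest at or near the NKT1 end in C57BL/6 and BM only, and in BM + Spl the last bin stands at 188 CPM for Pdcd1 and 177 CPM for Lag3.

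Regulatory T cells carry CTLA-4 without prior stimulation, many of them carry TIGIT, and TIM-3 is found on an activated subset. After BMT most UMIs of Ctla4, Tigit and Havcr2 came from the Treg-gated cells. In BM only, Treg-gated cells held 68.6% of all Ctla4, 65.5% of Tigit and 74.3% of Havcr2 UMIs, and in BM + Spl 52.2%, 50.7% and 54.1%. Ctla4 was at 526 (503 to 550.2) CPM in Treg-gated, 285 (247 to 326) in Sostdc1/Nrn1/Penk-gated and 4.91 (3.46 to 6.77) in NKT2-gated cells of BM only. The BM + Spl values were 519 (499.8 to 538), 309.9 (292 to 329) and 5.32 (4.19 to 6.64). Treg-gated cells were therefore the highest class for Ctla4 in both libraries, and NKT2-gated cells the lowest of the T cell classes. Of NKT2-gated cells with a called V beta segment, 94.8% and 94.7% carried one typical of iNKT cells, which other T cells can carry too. Tigit followed the same order as Ctla4. It stood at 353 (334 to 372) CPM in Treg-gated cells of BM only and 445 (427 to 463) in those of BM + Spl, against 1.72 and 1.52 in NKT2-gated cells. Havcr2 stood at 69.1 (60.8 to 78.2) and 52.0 (46.1 to 58.5) CPM in Treg-gated cells and at 0.133 and 0.138 in NKT2-gated cells, where it had 1 and 2 UMIs.

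The promoters of Ctla4 and Tigit are shown because their levels varied together over cell classes more closely than those of any other pair of the 10 genes (Pearson r of 0.951 over 22 classes, described with the likeness values further on). The sequences are those of RefSeq on GRCm38.p6, from 250 bases before to 50 bases after the start, in the direction of transcription. Capitals mark GGAAA or its reverse complement TTTCC, the core letters of sites for NFAT, a factor activated by T cell receptor signals. These letters were searched on both strands and no other motif was searched. Ctla4, on the forward strand at chr1:60908775-60909074, held 1 match and Tigit, on the reverse strand at chr16:43664135-43664434, held 2.
Ctla4: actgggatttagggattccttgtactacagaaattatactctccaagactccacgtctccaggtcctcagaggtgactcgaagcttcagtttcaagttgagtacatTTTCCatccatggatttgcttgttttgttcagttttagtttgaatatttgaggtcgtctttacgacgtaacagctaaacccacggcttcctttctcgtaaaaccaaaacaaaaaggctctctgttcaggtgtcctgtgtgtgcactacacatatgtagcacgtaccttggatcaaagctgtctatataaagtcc
Tigit: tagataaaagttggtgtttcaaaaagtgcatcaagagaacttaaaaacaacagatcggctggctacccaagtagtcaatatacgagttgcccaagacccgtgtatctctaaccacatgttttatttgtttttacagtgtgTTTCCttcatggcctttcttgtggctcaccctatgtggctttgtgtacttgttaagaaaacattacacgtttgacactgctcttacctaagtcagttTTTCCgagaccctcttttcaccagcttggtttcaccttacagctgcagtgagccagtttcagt
Of all 32851 RefSeq promoters of this length 61.3% hold at least 1 such match, so that a match alone sets no gene apart. Promoters were found for 8 of the 10 genes, all but Lag3 and Tox. Among these, the Havcr2, Btla and Cd200 promoters held no match, and Tox2 held 1 at 2 of its 5 starts, which lie 1 base apart.

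Between BM + Spl and BM only, the levels of CTLA-4 and TIGIT transcripts within Treg-gated cells stayed within 1.5-fold. Of the 10 genes, 1 was higher and 1 lower past 1.5-fold there (655 against 584 cells), beside 4.82% and 8.72% of all genes. Ctla4 differed by 0.986-fold (0.930 to 1.05), Tigit by 1.26-fold (1.18 to 1.35), Izumo1r by 1.0-fold (0.932 to 1.08) and Tox by 0.937-fold (0.849 to 1.04). The gene that was higher was Lag3, at 174 (163 to 185) CPM in BM + Spl and 45.8 (39.1 to 53.3) in BM only, or 3.79-fold (3.22 to 4.50). The gene that was lower was Tox2, at 8.82 (6.51 to 11.7) and 17.5 (13.5 to 22.4) CPM. In cells thinned to 2000 UMIs, the share of Treg-gated cells with a Ctla4 UMI was 60.2% (56.0 to 64.3) in BM only and 61.3% (57.4 to 65.1) in BM + Spl, and the share with a Lag3 UMI 7.03% (5.04 to 9.48) and 21.7% (18.6 to 25.1). Without thinning the Lag3 shares were 12.5% and 35.9%. B cell-gated cells, given beside these, had a thinned Lag3 share of 1.22% and 5.26%, at a median depth of 6340.5 and 8389.5 UMIs, and a Ctla4 share of 0% of 82 cells and 7.02% of 57.

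LAG-3, which binds MHC class II, set the cell classes in a different order in each BMT library. In BM only it was highest in Sostdc1/Nrn1/Penk-gated cells, at 261 (225 to 301) CPM, followed by pDC-gated cells, at 203 (176 to 234), and CD8-gated cells, at 163 (136 to 194). The intervals of neighbours in this order overlap. NKT17-gated cells stood at 71.1 (60.3 to 83.3), Treg-gated cells at 45.8 (39.1 to 53.3), and NKT1-gated and NKT2-gated cells at 11.5 (9.73 to 13.4) and 11.3 (9.01 to 13.9). The last of these, NKT1-gated and NKT2-gated cells, had overlapping intervals. In BM + Spl the order began with Sostdc1/Nrn1/Penk-gated cells at 467 (444 to 489.7), CD8-gated at 230.2 (206 to 257), pDC-gated at 208 (193 to 224) and Treg-gated at 174 (163 to 185), and went on with NKT1-gated at 155 (145 to 166), NKT17-gated at 60.8 (47.1 to 77.2) and NKT2-gated at 17.9 (15.8 to 20.3). The Sostdc1/Nrn1/Penk-gated cells were the highest in both libraries, and among the T cell classes the NKT1-gated cells differed most between the libraries, with the level of NKT2-gated cells in BM only and an interval that overlaps that of Treg-gated cells in BM + Spl.

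Plasmacytoid dendritic cells are known to express LAG-3. In pDC-gated cells without any UMI of the T cell list (112 and 272 cells), Lag3 was about as high as in the whole gate. It stood at 238 (202 to 278) CPM in BM only and 225 (204 to 248) in BM + Spl. Izumo1r and Tox were at most 0.555 and 1.11 CPM in the same cells. Tigit was at 13.4 and 34.4 CPM in them, against 24.6 and 86.4 in the whole gate, and its source was not tested. The pDC-gated cells held 16.9% and 13.4% of each library's Lag3 UMIs. In B cell-gated cells Lag3 stood at 6.37 and 64.2 CPM, and at 8.26 and 15.6 in those without T cell list UMIs.

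PD-1 and TOX were shared by iNKT and other T cells after BMT. Pdcd1 stood at 193 (183 to 203) CPM in NKT2-gated, 183 (153 to 217) in Sostdc1/Nrn1/Penk-gated and 136 (121 to 153) in NKT17-gated cells of BM only. NKT2-gated and Sostdc1/Nrn1/Penk-gated cells had overlapping intervals. It was lower in CD8-gated cells, at 113 (90.8 to 139), in Treg-gated cells, at 83.6 (74.5 to 93.5), and in NKT1-gated cells, at 32.6 (29.6 to 35.7), the lowest of these classes. In BM + Spl the values in the same order were 166 (159.8 to 173), 317 (298 to 336), 146 (124 to 171), 117 (100 to 137), 91.7 (83.9 to 100.1) and 140.2 (130.4 to 150.4). There the Sostdc1/Nrn1/Penk-gated cells stood above all others, and the NKT1-gated cells lay between Treg-gated and NKT2-gated cells. Tox was about equal in NKT2-gated and Sostdc1/Nrn1/Penk-gated cells, at 274 (262 to 286) and 276 (239 to 317) CPM in BM only and 282 (273 to 290.4) and 271 (254 to 289) in BM + Spl. It was 59.0 (54.9 to 63.2) in NKT1-gated cells of BM only and 151 (141 to 162) in those of BM + Spl. Tox2 was scarce throughout, with at most 22.2 (12.7 to 36.1) CPM in any of the marker-gated classes of 50 cells or more.

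The promoters of Pdcd1 and Izumo1r are shown because both genes were at their highest, among the NKT classes, in NKT2-gated or mixed cells of each of the 3 libraries, with the same source, window and capitals as above. Pdcd1, on the reverse strand at chr1:94052504-94052803, held 2 matches, which lie next to each other, and Izumo1r, on the reverse strand at chr9:14903718-14904017, held 1.
Pdcd1: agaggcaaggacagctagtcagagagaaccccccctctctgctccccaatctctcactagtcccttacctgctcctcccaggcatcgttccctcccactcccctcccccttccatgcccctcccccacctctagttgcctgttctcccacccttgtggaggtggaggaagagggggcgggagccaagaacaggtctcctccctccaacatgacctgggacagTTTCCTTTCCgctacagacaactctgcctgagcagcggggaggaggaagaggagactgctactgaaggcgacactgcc
Izumo1r: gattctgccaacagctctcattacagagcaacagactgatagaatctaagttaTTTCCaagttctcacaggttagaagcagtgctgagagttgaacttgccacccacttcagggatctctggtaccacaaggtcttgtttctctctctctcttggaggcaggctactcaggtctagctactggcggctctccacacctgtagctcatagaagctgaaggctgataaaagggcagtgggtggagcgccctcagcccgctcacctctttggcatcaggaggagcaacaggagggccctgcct
Izumo1r was highest in NKT2-gated cells, at 396 (382 to 410.1) CPM in BM only and 493 (481 to 504) in BM + Spl, followed by mixed cells at 378 (357 to 401) and 485 (467 to 504) and Treg-gated cells at 351 (332 to 371) and 351 (336 to 368). NKT2-gated cells alone held 36.5% and 49.3% of all its UMIs.

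The Sostdc1/Nrn1/Penk-gated cells of BM + Spl combined PD-1, LAG-3 and CD200 transcripts at levels above those of Treg-gated cells. Against Treg-gated cells of the same library, 6 of the 10 genes were higher and 3 lower past 1.5-fold, beside 13.5% and 12.6% of all genes. Cd200, the ligand of the inhibitory receptor CD200R, was 4.16-fold (3.62 to 4.80) higher, Pdcd1 3.45-fold (3.1 to 3.84), Lag3 2.69-fold (2.48 to 2.91) and Btla 2.33-fold (1.79 to 3.05), and Tox and Tox2 were 1.54-fold and 1.5-fold higher. Tox2 lay at the cut and rested on 47 UMIs in Sostdc1/Nrn1/Penk-gated and 48 in Treg-gated cells. Izumo1r stood at 0.290, Havcr2 at 0.499 and Ctla4 at 0.597 times the Treg-gated level. Between BM + Spl and BM only (582 against 126 cells), 2 genes were higher and 2 lower in this class, beside 11.4% and 10.9% of all genes. Lag3 was 1.79-fold (1.54 to 2.09) and Pdcd1 1.73-fold (1.44 to 2.09) higher, and Izumo1r stood at 0.439-fold (0.365 to 0.531) and Tox2, whose interval reaches past 1, at 0.597-fold (0.332 to 1.13) of the BM only level. Cells with 2 or 3 UMIs of these markers, next to the cut of 3, numbered 100 in BM only and 151 in BM + Spl.

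Over all filtered cells, 4 of the 10 genes were more than 1.5-fold higher in BM + Spl than in BM only and 0 were lower, beside 8.17% and 10.8% of all genes. Lag3 was at 117 against 33.7 CPM and thus 3.47-fold (3.26 to 3.71) higher, Cd200 at 46.8 against 22.7 and 2.06-fold (1.90 to 2.24), Tigit at 111 against 56.4 and 1.96-fold (1.86 to 2.07), and Ctla4 at 125 against 80.4 and 1.56-fold (1.49 to 1.63). Pdcd1, at 144 against 98.5 CPM, Izumo1r, at 336 against 235, and Tox, at 213 against 154, differed by 1.46-fold, 1.43-fold and 1.38-fold. Btla, Havcr2 and Tox2 differed by 1.30-fold, 1.25-fold and 1.08-fold. The median over the 10 genes was 0.53 on the log2 scale, against 0.00 over all genes. The libraries also differ in their mix of classes. With the BM only mix held fixed and the levels of BM + Spl put into it, Lag3 would be 3.34-fold, Tigit 1.93-fold, Cd200 1.57-fold and Ctla4 1.49-fold higher. With the BM only levels held fixed and the mix changed, the values were 1.73-fold, 1.32-fold, 1.88-fold and 1.33-fold. The mix meant here is that of the marker gates, and a change of cells inside a gate counts as a change of level. Of NKT1-gated cells with a called segment, 91.2% carried an iNKT segment in BM only and 47.4% in BM + Spl. The part of such changes in these values was not tested.

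Within NKT2-gated cells that carried an iNKT V beta segment (1085 against 624 cells), the transplanted groups differed little. Of the 8 genes with at least 20 UMIs, 1 was higher and 0 lower past 1.5-fold, beside 2.63% and 5.33% of all genes. That gene was Lag3, at 19.0 against 12.1 CPM, or 1.58-fold (1.21 to 2.08). Its log2 ratio of 0.66 fell to between 0.16 and 0.58, within the fold, under 5 other settings of the doublets, the gate and the V beta call. Pdcd1 was at 172 against 196 CPM, or 0.877-fold (0.817 to 0.943), Tox at 272 against 269, or 1.01-fold (0.953 to 1.07), and Izumo1r at 505 against 402, or 1.26-fold (1.20 to 1.32). Ctla4 differed by 1.15-fold (0.708 to 1.93), Btla by 1.03-fold (0.856 to 1.25), Cd200 by 0.855-fold (0.706 to 1.04) and Tox2 by 0.775-fold (0.608 to 0.989). Tigit had 9 UMIs in BM + Spl and 5 in BM only, and Havcr2 2 and 1, so that a difference in these was not detectable at this depth.

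Within NKT1-gated cells with an iNKT V beta segment (351 against 2176 cells), 9 of the 10 genes were higher in BM + Spl past 1.5-fold and 0 were lower, beside 13.0% and 14.5% of all genes. Their median was 2.65 on the log2 scale, against 0.01 over all genes. Lag3 stood at 109 against 5.49 CPM, or 19.8-fold (14.7 to 27.0), Ctla4 at 75.5 against 7.29, or 10.4-fold (7.84 to 13.8), and Pdcd1 at 144 against 33.8, or 4.27-fold (3.66 to 4.98). Tigit was 3.33-fold (2.62 to 4.22), Tox 3.27-fold (2.87 to 3.73) and Izumo1r 2.79-fold (2.58 to 3.02) higher. Cd200, Havcr2 and Tox2 rested on few UMIs in BM only, with levels of 0.998, 0.599 and 0.699 CPM, and were 27.7-fold (14.1 to 60.4), 10.1-fold (3.64 to 32.0) and 9.26-fold (3.55 to 26.8) higher. Btla differed by 1.10-fold (0.779 to 1.52). B cell-gated cells (60 against 82) also had 7 of 8 genes with at least 20 UMIs higher and 0 lower, beside 820 and 582 of 5846 genes. Tigit stood there at 62.3 against 9.56 CPM, and in the NKT1-gated cells at 55.2 against 16.6. How much of the ratios in NKT1-gated cells comes from transcripts of other cells was not tested.

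These NKT1-gated cells differed between the libraries in more than the 10 genes, and the part of that in the ratios was not tested. The NKT1 list had a median of 69.0 UMIs per 10000 in NKT1-gated cells of BM only and 25.8 in those of BM + Spl. Zbtb16, which encodes PLZF, the factor that defines the iNKT lineage, belongs to the NKT2 list of the gate. It had a UMI in 18.5% (16.9 to 20.2) of the 2176 BM only cells and 34.5% (29.5 to 39.7) of the 351 BM + Spl cells, against 92.0% and 91.7% of NKT2-gated cells with an iNKT V beta segment. In the 230 BM + Spl cells without a Zbtb16 UMI, Lag3 was at 181 (158 to 206) CPM, Ctla4 at 129 (110.2 to 151), Pdcd1 at 189 (166 to 214) and Tigit at 99.9 (83.2 to 119). In the 121 with one they were at 22.7 (14.5 to 33.8), 11.3 (5.86 to 19.8), 91.7 (74.4 to 112) and 1.89 (0.229 to 6.83). Izumo1r ran the other way, at 297 (268 to 329) CPM without and 606 (560.1 to 655) with a Zbtb16 UMI, and Tox was at 163 (142 to 187) and 193 (167 to 221). The 402 BM only cells with a Zbtb16 UMI held Lag3 at 12.2 (8.01 to 17.7) CPM, Ctla4 at 5.40 (2.79 to 9.44), Pdcd1 at 49.1 (40.3 to 59.2), Tigit at 8.55 (5.15 to 13.4), Tox at 95 (82.6 to 109) and Izumo1r at 238 (218 to 259). In the 1774 BM only cells without one, the values in the same order were 3.59 (2.39 to 5.19), 7.82 (5.98 to 10.05), 29.5 (25.8 to 33.6), 18.9 (15.9 to 22.2), 42.3 (37.9 to 47.1) and 134 (126 to 142). Lag3 and Pdcd1 were thus higher in cells without a Zbtb16 UMI in BM + Spl and lower in such cells in BM only.

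Among NKT1-gated cells with a Zbtb16 UMI, Pdcd1, Tox and Izumo1r were thus higher in BM + Spl with intervals that did not overlap. Lag3 and Ctla4 were higher past 1.5-fold with overlapping intervals, and Tigit, with 2 UMIs against 19, was lower. The segment Trbv29 gave a second view, since it was carried by 24.0% and 22.4% of the V beta-called NKT2-gated cells but by only 2.91% and 1.80% of Treg-gated and 2.04% and 1.18% of Sostdc1/Nrn1/Penk-gated cells in BM only and BM + Spl. It sets CD8-gated cells apart less, with 7.69% and 5.10%, beside 15.5% and 8.10% of NKT1-gated cells. In NKT1-gated cells with Trbv29 (60 against 371), only 6 of the 10 genes had at least 20 UMIs. Of these 4 were higher and 0 lower, beside 14.0% and 18.3% of all genes. Lag3 stood at 44.8 against 4.52 CPM, or 9.90-fold (4.18 to 26.0), Tox at 210.4 against 49.7, or 4.23-fold (3.13 to 5.72), Izumo1r at 577 against 188, or 3.07-fold (2.60 to 3.62), and Pdcd1 at 96.2 against 42.4, or 2.27-fold (1.52 to 3.35). Tigit was at 13.4 against 13.0 CPM, or 1.03-fold (0.344 to 2.61). Tox, Izumo1r, Pdcd1 and Lag3 were therefore higher past 1.5-fold in NKT1-gated cells of BM + Spl with either narrowing, whereas Tigit was not. Zbtb16 counts in the gate itself, so that its narrowing gives no separate support. The bin at the NKT1 end of the marker share held 2027 of the 2176 BM only cells and 226 of the 351 BM + Spl cells. The part of this in the ratios was not tested, and no share of all genes is given for the Zbtb16 narrowing.

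**Figure D3:**
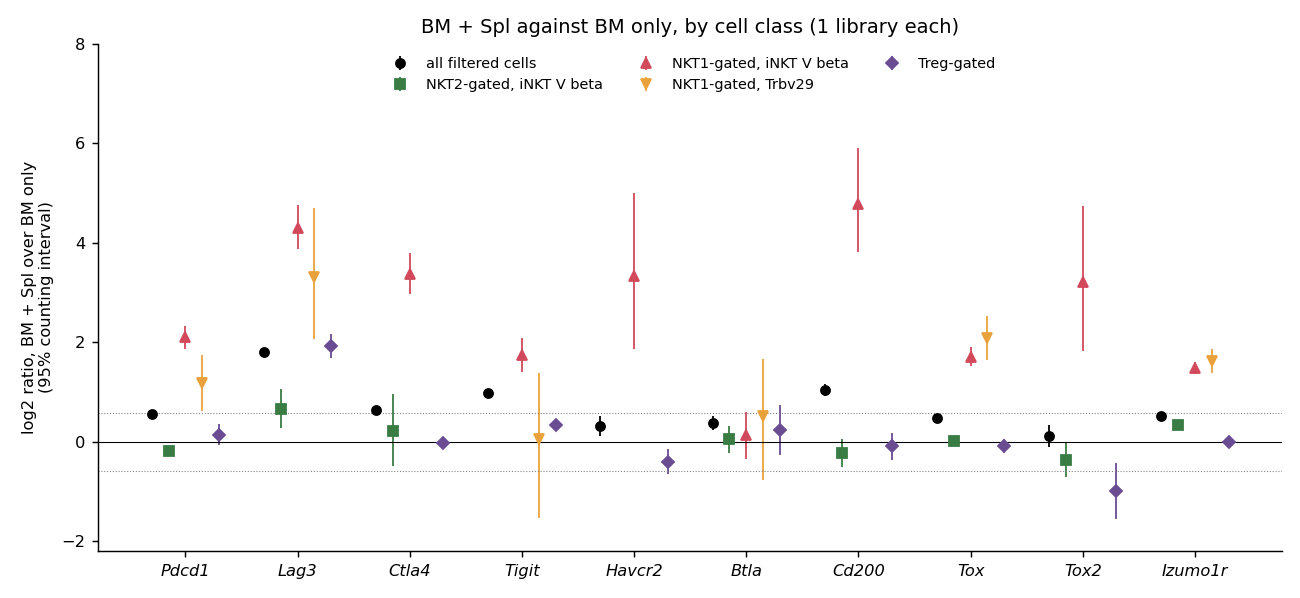
Ratio of BM + Spl over BM only for each gene (y axis, log2 of the ratio of CPM, bars show 95% counting intervals) in all filtered cells, NKT2-gated and NKT1-gated cells with an iNKT V beta segment, NKT1-gated cells with Trbv29 and Treg-gated cells, with dotted lines at 1.5-fold and genes under 20 UMIs left out. NKT1-gated cells with an iNKT V beta segment lie above all filtered cells, NKT2-gated cells and Treg-gated cells for 9 of the 10 genes, all but Btla, and Lag3 in Treg-gated cells lies at 3.79-fold.

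Within each BMT library, NKT2-gated cells were also set against NKT1-gated cells with iNKT segments. In BM only 6 genes were higher and 2 lower in NKT2-gated cells, beside 19.8% and 19.7% of all genes, with Pdcd1 5.80-fold (5.14 to 6.56), Tox 4.97-fold (4.51 to 5.49), Izumo1r 2.56-fold (2.40 to 2.73) and Lag3 2.20-fold (1.53 to 3.17) higher, Btla within the fold at 1.48-fold (1.20 to 1.84), and Ctla4 and Tigit at 0.559 and 0.0492 times the NKT1-gated level. In BM + Spl 2 were higher and 3 lower, beside 11.8% and 15.1%. Tox2 and Tox were 2.24-fold and 1.54-fold higher, Pdcd1 and Izumo1r differed by 1.19-fold (1.06 to 1.34) and 1.15-fold (1.08 to 1.23), and Lag3, Ctla4 and Tigit stood at 0.175, 0.0622 and 0.0137 times the NKT1-gated level. Of other inhibitory receptors and signal terminators, 4 of 18 were higher and 11 lower in NKT2-gated cells of BM only. In BM + Spl 1 of 17 was higher and 10 were lower.

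**Figure D4:**
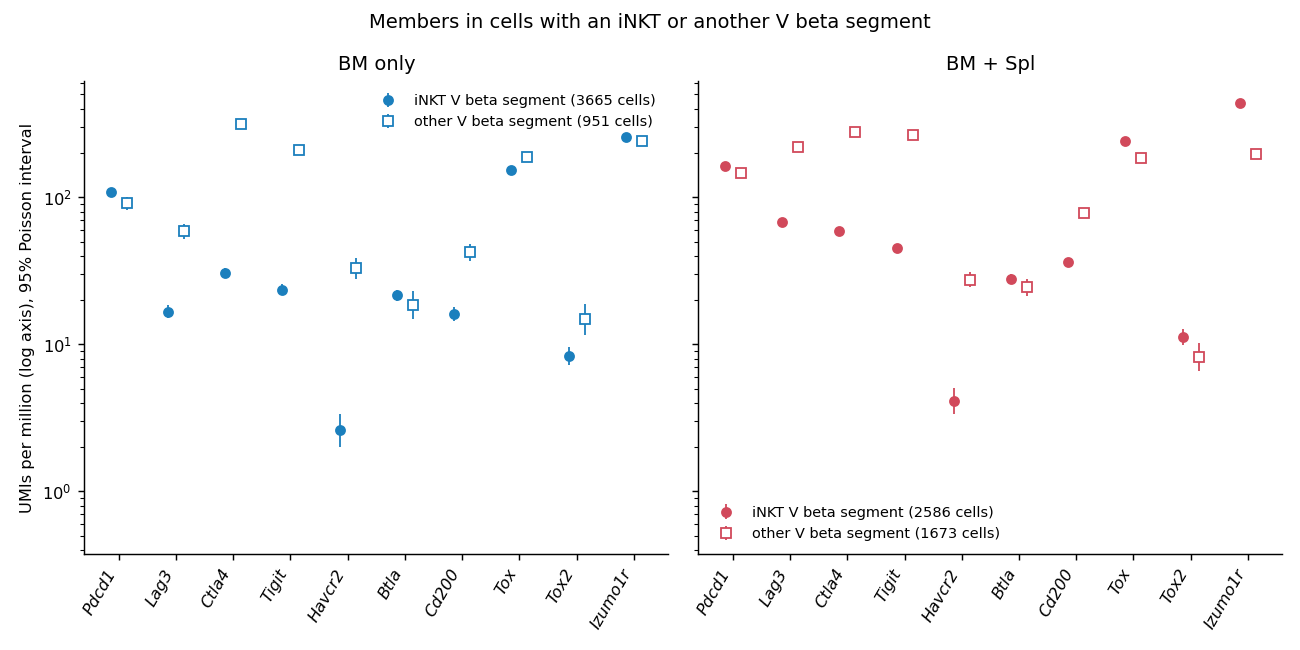
Level of each gene (y axis, CPM, log axis, bars show 95% Poisson intervals) in cells with an iNKT V beta segment (filled circles) and cells with another segment (open squares), in BM only (left) and BM + Spl (right). Lag3, Ctla4, Tigit, Havcr2 and Cd200 are higher in cells with other segments in both libraries, whereas Pdcd1, Btla and Tox lie close together.

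The V beta segment separates these genes by a measure that no marker gate uses. In BM + Spl, cells with other segments (1673) exceeded cells with iNKT segments (2586) past 1.5-fold in 5 of the 10 genes and fell below them in 1, beside 19.2% and 9.45% of all genes. Havcr2 was 6.66-fold (5.26 to 8.49) higher, Tigit 5.85-fold (5.44 to 6.29), Ctla4 4.74-fold (4.44 to 5.06), Lag3 3.26-fold (3.06 to 3.48) and Cd200 2.15-fold (1.95 to 2.37), and Izumo1r stood at 197 against 441 CPM, or 0.447-fold (0.426 to 0.469). Pdcd1 and Tox stayed within the fold, at 0.893 and 0.758 times the level of iNKT-segment cells. In BM only (951 against 3665 cells) 6 genes were higher and 0 lower, beside 15.4% and 9.67% of all genes. Havcr2 was 12.6-fold (9.25 to 17.3), Ctla4 10.4-fold (9.48 to 11.4), Tigit 8.86-fold (7.96 to 9.86) and Lag3 3.52-fold (3.0 to 4.12) higher, and Izumo1r, at 241 against 257 CPM, was not lower than in iNKT-segment cells past the fold. Lag3, Ctla4, Tigit, Havcr2 and Cd200 were thus higher past the fold in cells with other segments in both libraries, and Pdcd1, Btla, Tox and Izumo1r in neither. The first 5 were also higher in both without the B cell, pDC, macrophage, Treg and Sostdc1/Nrn1/Penk gates. Then 2 genes were lower in each library, Tox2 (log2 ratio -1.18) and Izumo1r (-1.61) in BM + Spl and Pdcd1 (-0.62) and Izumo1r (-0.61) in BM only, and Tox2 was no longer higher in BM only (0.31). No share of all genes past the fold is given for the cells left after these gates, so that these counts have no background beside them.

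Within NKT1-gated cells of BM + Spl, the 390 with other segments were set against the 351 with iNKT segments. They differed past the fold in 4 of the 5 genes that were higher over the whole library. Tigit was 3.60-fold (2.94 to 4.43), Lag3 2.18-fold (1.86 to 2.55), Ctla4 2.07-fold (1.71 to 2.51) and Cd200 1.66-fold (1.19 to 2.33) higher with other segments and Izumo1r stood at 74.9 against 438 CPM, or 0.171-fold (0.143 to 0.204), which makes 4 genes higher and 1 lower beside 12.0% and 10.4% of all genes. Havcr2, at 8.85 against 6.04 CPM, or 1.47-fold (0.680 to 3.21), did not pass the fold here. In BM only (210 against 2176 cells) 4 were higher and 0 lower, beside 11.7% and 9.52%, led by Ctla4 at 13.6-fold, Tigit at 4.61-fold and Lag3 at 3.92-fold. NKT1-gated cells with other segments also differed between the libraries, with 6 genes higher in BM + Spl and 1 lower, beside 10.9% and 12.4% of all genes. Lag3 was at 237 against 21.5 CPM, or 11-fold (7.03 to 18.2), and Pdcd1 at 167 against 40.9, or 4.08-fold (2.91 to 5.88), whereas Tox, at 119 against 118, differed by 1.0-fold (0.794 to 1.27) and Izumo1r stood at 0.490 times the BM only level. Higher Lag3 and Pdcd1 in BM + Spl therefore held in NKT1-gated cells of either segment class, and higher Tox and Izumo1r in those with iNKT segments.

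NKT17-gated cells (135 against 331) had 5 genes higher in BM + Spl and 0 lower, beside 9.20% and 11.3% of all genes. Tigit was 5.90-fold (3.55 to 10.2), Cd200 4.63-fold (2.41 to 9.37), Izumo1r 2.58-fold (1.95 to 3.44), Tox2 2.42-fold (1.09 to 5.47) and Ctla4 1.68-fold (1.25 to 2.25) higher, whereas Lag3 was at 60.8 against 71.1 CPM, or 0.855-fold (0.632 to 1.15). Of the cells in this gate with a called segment, 76.5% carried an iNKT segment in BM only and 51.8% in BM + Spl. Among those with an iNKT segment (57 against 195), 4 of 8 genes were higher and 1 lower, beside 688 and 1136 of 7658 genes. Tigit stood at 57.2 CPM in all NKT17-gated cells of BM + Spl and at 62.3 in B cell-gated cells of that library. In CD8-gated cells (261 against 145), 3 of 9 genes were higher and 0 lower, beside 764 and 988 of 8345 genes. Izumo1r was 2.72-fold, Tigit 2.14-fold and Btla 1.78-fold as high in BM + Spl as in BM only, with Btla resting on 28 against 9 UMIs. Lag3 and Pdcd1 differed by 1.41-fold (1.15 to 1.74) and 1.04-fold (0.798 to 1.36). In CD8-gated cells with other segments (122 against 52), 1 of 8 genes was higher and 1 lower, beside 720 and 802 of 5554 genes.

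Receptors with a UMI in the same cell were counted. The share of cells with several of them also rises with the level of each alone, and what it holds beyond that was not tested. Cells were thinned to 2000 UMIs each, which left out 12, 541 and 256 shallower cells of C57BL/6, BM only and BM + Spl. Of Pdcd1, Lag3, Ctla4, Tigit and Havcr2, at least 3 had a UMI in 27.6% (24.0 to 31.5) of Sostdc1/Nrn1/Penk-gated, 21.8% (18.7 to 25.2) of Treg-gated and 8.50% (6.75 to 10.5) of NKT1-gated cells of BM + Spl. In BM only the shares were 15.5% (9.27 to 23.6), 14.8% (11.9 to 18.0) and 0.187% (0.0608 to 0.436), and in NKT2-gated cells 0.132% and 0.151% in BM only and BM + Spl. In NKT1-gated cells of BM + Spl, Lag3 had a UMI in 39.5% (31.9 to 47.5) of the 162 cells with a Tigit UMI and in 13.1% (10.7 to 15.7) of the 720 without. In Treg-gated cells the shares were 31.1% (26.3 to 36.3) and 10.3% (7.06 to 14.4), and in Sostdc1/Nrn1/Penk-gated cells 60% (53.1 to 66.6) and 51.3% (45.9 to 56.6). These shares were not split by V beta segment. Of NKT1-gated cells of BM + Spl with a called segment, 47.4% carried an iNKT segment, and the part of this mix in the shares was not tested. The thinned share of NKT1-gated cells with a Lag3 UMI was 1.69% (1.23 to 2.25) in BM only and 17.9% (15.4 to 20.6) in BM + Spl, with 3.50% and 28.1% before thinning at a median depth of 4350 and 4828 UMIs. For Pdcd1 the thinned shares were 6.03% (5.16 to 7.00) and 19.3% (16.7 to 22.0) (10.2% and 34.0% before thinning), and the B cell-gated share was 1.22% and 3.51%. In NKT2-gated cells the thinned Lag3 shares were 2.90% and 3.55%, above the B cell-gated share given earlier in BM only and below it in BM + Spl.

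The ligands, partner receptors and downstream factors of these genes were counted by the same fold. Over all filtered cells, 1 of 11 ligands with at least 20 UMIs was higher in BM + Spl, Cd80 (log2 ratio 0.83), which binds CTLA-4 and CD28, and 1 was lower, Pvr (-0.75), which binds TIGIT. Of 20 other inhibitory receptors and signal terminators, called the inhibitory list here, 2 were higher, Lair1 and Klrg1 (0.86 each). In this list 2 were lower, Cd244a (-1.17) and Cd160 (-0.91), the latter a receptor of NKT1 cells and NK cells. Of the 6 costimulatory receptors Tnfrsf4 (OX40, 0.77) and Tnfrsf9 (4-1BB, 0.69) were higher and 0 lower, and of 18 NFAT, Nr4a and other exhaustion- or anergy-linked factors 0 were higher and Entpd1 (CD39, -0.76) was lower. Of all genes 8.17% were higher and 10.8% lower, so that the counts for ligands and for the inhibitory list lie near the background. In NKT1-gated cells with an iNKT segment, 4 of 18 genes of the inhibitory list were higher, with Cd72 (1.67) and Sh2d1a (1.03) at the top. In the same list 3 were lower, with Lair1 (-2.05) and Cd244a (-1.26) at the bottom. Sh2d1a encodes SAP, and the study describes SLAM-SAP signals as co-stimulatory, so that not every gene of this list is inhibitory. Of the 6 costimulatory receptors 3 were higher in these NKT1-gated cells, among them Tnfrsf4 (3.38) and Icos (1.36). Of 16 factors 4 were higher, led by Egr2 (1.74) and Nr4a1 (0.96), genes switched on by T cell receptor signals, and 2 lower, Prdm1 (-1.89) and Entpd1 (-1.43), beside 13.0% and 14.5% of all genes. In NKT2-gated cells with an iNKT segment 0 of 6 ligands and 0 of 6 costimulatory receptors passed the fold. Of 17 genes of the inhibitory list 1 was lower, Cd244a (-0.75). Of 16 factors 2 were higher, Entpd1 (1.21) and Nr4a3 (0.63), and 1 lower, Nr4a2 (-0.69), beside 2.63% and 5.33% of all genes. Cd244a, with 15 against 13 UMIs and an interval of -1.92 to 0.44, and Entpd1, with 18 against 4 UMIs and an interval of -0.39 to 3.23, both include no change. Cells with other segments exceeded iNKT-segment cells of BM + Spl in 11 of 20 genes of the inhibitory list, led by Klrg1 (2.79) and Ceacam1 (1.80). They also did so in 10 of 18 factors, led by Prdm1 and Eomes (2.97 each), and in 5 of 10 ligands, led by Cd200r4 (2.60) and Cd200r1 (2.35). In these lists 0 were lower. Of the 6 costimulatory receptors 4 were higher as well, led by Tnfrsf4 (2.24) and Tnfrsf9 (1.96), and Cd28 (-0.61) was lower. Of all genes 19.2% were higher and 9.45% lower, so that the rise was not limited to inhibitory genes.

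Likeness between genes was described as Pearson's r of log2(CPM + 1) over the 22 classes of at least 50 cells in the 3 libraries, centred within each library, among 9913 genes with at least 500 UMIs. These points share libraries and differ in depth, so that r is a description and has no p. Tox followed Pdcd1 (0.925) and Tox2 followed Pdcd1 less closely (0.789). Havcr2 followed Ctla4 (0.915) and Tigit (0.884), Lag3 followed Ctla4 (0.727), and Pdcd1 and Lag3 were nearly unrelated (0.0757). The 3 genes most like Ctla4 were Tigit and Sdcbp2 (0.951 each) and Plec (0.935), and those most like Tigit were Ctla4, Sh3bgrl (0.942) and Gpx4 (0.939). Havcr2 was nearest to Cldnd1 (0.953), Vps54 (0.923) and Wnk1 (0.922), and Lag3 to Ppfibp1 (0.881), Smim11 (0.868) and Sms (0.865). Pdcd1 was nearest to Bola3 (0.940), Fam162a (0.937) and Mmd (0.932), Tox to Lcmt1 (0.943), Mmd and Prickle1 (0.940 each), and Tox2 to Sf3a1 (0.905), Pebp1 (0.900) and Psmb7 (0.889). Izumo1r was nearest to Ptpn5 (0.919), Lbh (0.888) and Pwwp3a (0.875), Cd200 to Prkca (0.876), Gpm6b (0.855) and Chmp5 (0.796), and Btla to Eif3f (0.839), Grk5 (0.792) and Bmi1 (0.784).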

How the data were processed

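The authors sorted thymocytes of 3 groups of mice and sequenced 1 droplet library per group. Per the file headers, the deposited values are raw UMI counts per gene and cell barcode, made with Cell Ranger 3.0.2 for C57BL/6 and 7.0.0 for the BMT libraries. The study's methods name another version, the labels name the mm10 build and the submitters' processing notes also name Seurat 4.0.2. The kit of each library was not given in the sources used here.

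Cells with more than 200 and fewer than 6000 genes and less than 10% mitochondrial UMIs were kept, as in the study. This left more cells in each BMT library than the study states for any of its samples, and the step behind this difference was not given in the sources used here. Over the genes shared by the 3 libraries, counts were summed per class and divided by the class total. The B cell, pDC and macrophage gates needed 10 marker UMIs and the Sostdc1/Nrn1/Penk, CD8 and NKT17 gates 3, applied in the order B cell, pDC, macrophage, Treg, Sostdc1/Nrn1/Penk, CD8 and NKT17 before the NKT1 and NKT2 lists. A V beta segment was called where it held at least 80% of a cell's Trbv UMIs, and Trbv12-2 was counted with Trbv13-2. Intervals were exact Poisson for levels, Clopper-Pearson for shares and conditional binomial for ratios, and cover counting error only. A gene counted as higher or lower past 1.5-fold with at least 20 UMIs over both groups. Doublets were kept, and an alternative left out the 6% of cells with the highest Scrublet scores. Sums and intervals were made with scipy 1.17.1, numpy 2.4.6 and pandas 2.3.3 under Python 3.11.15 and doublet scores with scanpy 1.11.5. The ratio code was tested on simulated counts, and the gate code was not.

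All 10 genes are named, with the 3 genes most like each. Related lists are counted for some of the comparisons only, and at most the 2 largest differences in each direction of a list are named. The 10 genes, the lists and the gate rules were chosen with earlier results of these data known, and the alternatives on Trbv29, Zbtb16 and the Treg and Sostdc1/Nrn1/Penk gates were added after the data had been seen.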

Additional observations from a re-analysis of the deposited data

Results flagged for a closer look

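The ratio of Lag3 in NKT2-gated over NKT1-gated cells with an iNKT V beta segment pointed one way in BM only and the other way in BM + Spl. It was 1.13 on the log2 scale in BM only and -2.51 in BM + Spl. With 1 library per group the difference between these values was not tested.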

How the results depend on the processing

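No paired analysis was possible because each condition had 1 library, and no result had a test. Of 590 ratios of single genes recomputed under the alternatives, 479 moved by less than their counting interval, 110 moved by more and 1 changed direction. All 55 ratios recomputed without a cell filter, all 55 without a minimum of UMIs and all 55 centred on the median gene stayed within their interval, whereas 19 of 30 without the Treg and Sostdc1/Nrn1/Penk gates, 10 of 17 with Trbv29 alone, 30 of 55 with cells thinned to 2000 UMIs, 26 of 55 with the mean of per-cell CPM and 7 of 17 in cells with a Zbtb16 UMI did not. The minimum of UMIs does not enter a ratio, so that its 55 could not move. Centring shifted the ratios by at most 0.0525 on the log2 scale. The filter kept 4434 of 4613, 5970 of 5986 and 5557 of 5573 barcodes in C57BL/6, BM only and BM + Spl. These settings are part of the 479 but could move the ratios little. Between BM + Spl and BM only over all cells, thinning gave 7 genes higher instead of 4. In NKT2-gated cells with an iNKT segment, Lag3 was the 1 gene higher, at a log2 ratio of 0.66, and 0 were higher without the 6% highest Scrublet scores (Lag3 at 0.58), with a stricter gate (0.54), with V beta calls at 100% of at least 2 UMIs (0.56), without Trbv12-2 (0.58) or with Trbv29 alone (0.16). In the same cells 1 gene was lower with thinned cells and 1 with the mean of per-cell CPM. In NKT1-gated cells with an iNKT segment, 4 genes were higher with Trbv29 alone, and 5 were higher and 1 lower in cells with a Zbtb16 UMI, where the log2 ratio of Tigit was -2.18 instead of 1.74. In C57BL/6 without a minimum of UMIs, 2 genes were lower in NKT2-gated than in NKT1-gated cells. Cells with other V beta segments had 2 genes lower in BM + Spl with V beta calls at 100% of at least 2 UMIs and 2 without the Treg and Sostdc1/Nrn1/Penk gates, where BM only also had 2. The cause of these changes was not tested. Apart from Trbv29 alone in NKT1-gated cells, no share of all genes past the fold is given under these settings. These counts therefore have no background beside them, and whether all genes moved alike cannot be read from them.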

Other observations

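Within NKT2-gated cells, cycling and Ccr7+ cells had lower CPM of Izumo1r and Tox in each of the 3 libraries. Those cells also had more UMIs per cell of all genes together, so that a lower CPM does not show fewer transcripts per cell. In cells with at least 3 UMIs of the G2/M genes against cells with 0, Izumo1r stood at 206 against 490.4 CPM in C57BL/6, 282 against 469.7 in BM only and 329 against 591 in BM + Spl. Tox stood at 79.3 against 197, 222 against 299 and 190.5 against 313 CPM in the same order. Pdcd1 did not keep 1 direction, with 129 against 160.5 CPM in C57BL/6 and 219 against 192 in BM only and 179 against 166 in BM + Spl. With at least 2 Ccr7 UMIs, which mark precursor cells, against 0, Izumo1r stood at 293 against 435, 323 against 508 and 447 against 652 CPM, and Tox at 129.9 against 169, 225 against 345 and 246 against 320.3.

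Among NKT1-gated cells of BM + Spl with an iNKT segment, Lag3 varied with the segment. It stood at 167 (129 to 213) CPM with Trbv1, 138 (102 to 183) with Trbv13-1, 116 (96.2 to 139) with Trbv13-2 and 44.8 (27.3 to 69.1) with Trbv29. The 21 cells with Trbv13-3 held 1 Lag3 UMI, or 8.07 (0.204 to 45.0) CPM. In the same gate and library, cells with at least 5 UMIs of the interferon response genes held Lag3 at 20 (8.02 to 41.1) CPM and cells with 0 at 189 (164 to 217).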
